A study of Homo sapiens with 6 samples.

Results

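Among the 6 RNA-sequencing libraries of this study, the 4 libraries of ARID1A-deficient cells fell apart along a line that no label gives. sg1 replicate 1 and sg5 replicate 2 stood on one side, and sg1 replicate 2 and sg5 replicate 1 on the other, so that each side held 1 library of each guide. These 4 libraries were chosen because of their expression, and all genes measured in them count as used for that choice. The differences between the sides are therefore given as a description, with no test, and a sentence on them supports nothing beyond these 4 libraries. For brevity, sg1 replicate 1 and sg5 replicate 2 are called the divergent pair, and sg1 replicate 2 and sg5 replicate 1 the other pair. The name is a label and does not mean that the other pair matched LacZ, from which it also differed. In the divergent pair, some of the genes that cells use to make and import amino acids were lower. Many genes for heat shock chaperones, endoplasmic reticulum chaperones, cholesterol synthesis and tubulins were higher.

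The cells were NB4, an established acute promyelocytic leukemia line. All of them carried Cas9 with an mCherry reporter and a doxycycline-inducible small guide RNA with a GFP reporter, and cells positive for both reporters were sorted as populations rather than single clones. The guide was directed to lacZ, a bacterial gene absent from human cells (LacZ, genotype label WT, 2 libraries), or to ARID1A (sg1 and sg5, genotype label ARID1A-deficient, 2 libraries each). Cells of all groups received 1 µg/ml doxycycline for 7 days. They were then kept free of doxycycline for 2 days until RNA was isolated. The titles end in E1 or E2, as in sg1_E1, and these are given here as replicates 1 and 2. The labels do not say what E stands for, and no source states that replicates were separate cultures. The p-values of the labelled comparisons below thus measure only the spread between these samples, which may be technical. ARID1A encodes a DNA-binding part of SWI/SNF, which remodels chromatin, and LacZ libraries are shown throughout for reference.

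Several of the programs described below are known from other work as coordinated responses. When amino acids run short or unfolded proteins accumulate, kinases that phosphorylate the initiation factor eIF2α slow protein synthesis but favor translation of ATF4, a transcription factor that switches on genes for amino acid synthesis, amino acid import and tRNA charging. Misfolded protein in the cytosol releases HSF1, which binds heat shock elements and drives chaperone genes, and misfolded protein in the endoplasmic reticulum acts through ATF6 and XBP1 on chaperones of that compartment. Low sterol in membranes activates SREBP2, which drives the enzymes of cholesterol synthesis. ATF4 is regulated largely by translation and HSF1 largely by its release and phosphorylation, so that their own mRNA need not follow their target genes.

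Values are CPM, the share of a library's counts scaled to a common total, after TMM scaling of gene sums of estimated counts, given per library in the order replicate 1, replicate 2. A within-guide difference is a difference of log2 CPM with a prior count of 2, taken as sg1 replicate 1 minus sg1 replicate 2 and as sg5 replicate 2 minus sg5 replicate 1, so that a negative value is lower in the divergent pair. A gene was called separating when both differences were at least 1.5-fold in the same direction and the values of the pairs did not overlap.

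The 4 libraries also differed as libraries. Total estimated counts, to 6 digits, were 54490100 in sg1 replicate 1 and 54843700 in sg5 replicate 2, against 46131200 and 48542000 in the other pair, and 53712100 and 52202100 in LacZ. The mean fragment length was 174.6 and 174.0 bases in the divergent pair and 171.9 and 170.8 in the other pair, with 176.0 and 182.6 in LacZ. Mitochondrial rRNA genes took 0.163% and 0.210% of counts in the divergent pair, 0.379% and 0.299% in the other pair, and 0.320% and 0.339% in LacZ. In each of these measures the pairs did not overlap. For fragment length both pairs lay below LacZ, and for mitochondrial rRNA the divergent pair and sg5 replicate 1 did. The part of depth, fragment length and rRNA content in the expression differences was not tested. These are bulk libraries, in which fewer cells of a kind and less RNA per cell cannot be told apart.

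**Figure D1:**
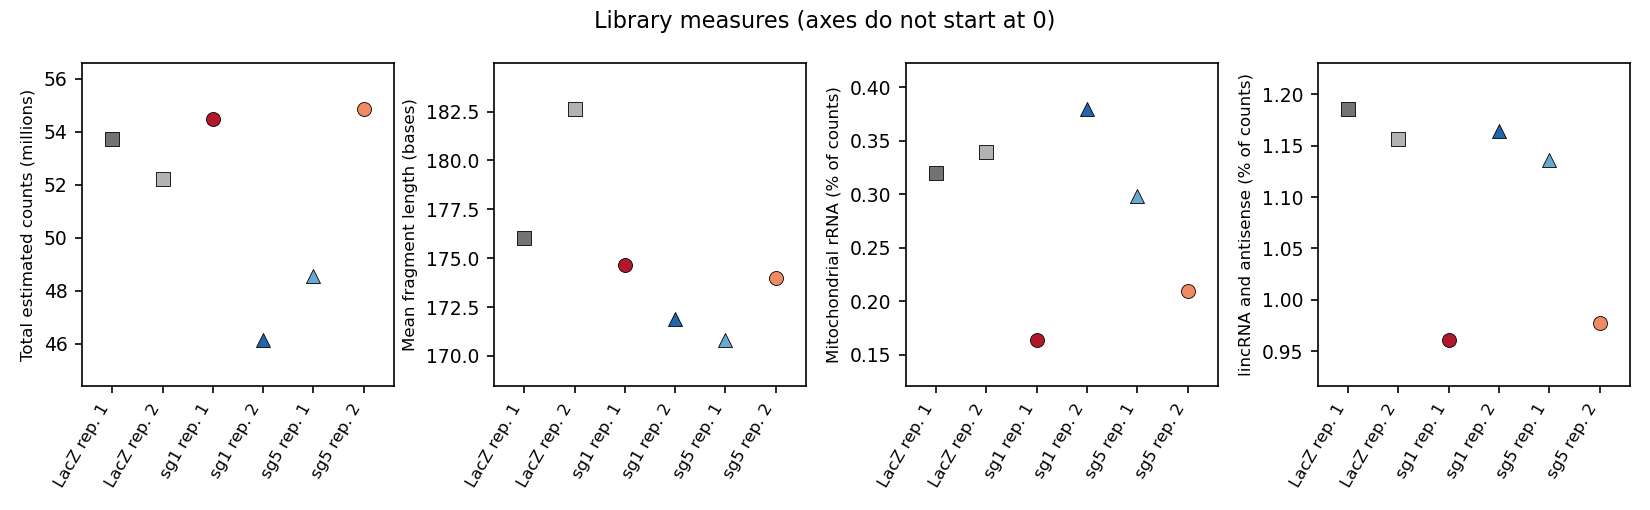
Each panel plots 1 measure for the 6 libraries (squares LacZ, circles the divergent pair, triangles the other pair): total estimated counts, mean fragment length in bases, and the percent of counts in mitochondrial rRNA genes and in lincRNA and antisense genes. The circles lie apart from the triangles in all 4 panels, with 0.163% and 0.210% against 0.379% and 0.299% for mitochondrial rRNA, and the axes do not start at 0.

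The targeted gene did not follow the division. ARID1A, on chromosome 1 from 26693236 to 26782110 (GRCh38), had 155 and 191 CPM in the LacZ libraries, 211 then 191 in those of sg1, and 124 then 145 in those of sg5. Its within-guide differences were 0.14 in sg1 and 0.23 in sg5. The level was thus slightly higher in the divergent pair within each guide, but the pairs overlapped because both sg5 libraries lay below both sg1 libraries. A frameshift can leave mRNA in place, so this level does not check the labels.

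Most defining genes of promyelocytic cells were present on both sides. ELANE, the neutrophil elastase gene also planned as a marker, was not among the genes tested, so its level is not given. MPO, the myeloperoxidase of promyelocyte granules, lay between 13431 and 16825 CPM in all 6 libraries, and CD33, a myeloid surface receptor, between 69.0 and 83.2. SPI1, the myeloid transcription factor PU.1, lay between 190.2 and 241. The granule protease genes AZU1, CTSG and PRTN3 spanned 160 to 217, 57.0 to 92.9 and 294 to 599.6 CPM, and PRTN3 was separating. Of the marker lists of other cell types, 8 of 14 T and NK cell genes, 5 of 10 B cell genes, 3 of 14 erythroid genes, 6 of 11 megakaryocyte genes and 6 of 12 fibroblast and epithelial genes passed the low-count filter. The separating members were TFRC, the transferrin receptor that dividing cells of many kinds carry, and COL1A1, a collagen chain that stayed at or below 0.357 CPM in all libraries.

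On the first principal component of log2 CPM, which held 34.4% of the variance over 18514 genes, the divergent pair scored 34.3 and 46.8. The other pair scored -15.0 and -11.3, nearer to the LacZ libraries at -24.4 and -30.3 than to the divergent pair. On the second component (19.1%) the divergent pair, at 8.59 and 4.27, was nearer to LacZ, at 13.7 and 26.3, than was the other pair, at -9.92 and -42.9. Of the 18514 genes, 266 were separating and higher in the divergent pair (1.44%) and 809 were separating and lower (4.37%). These shares serve as the background of the list counts below, and nothing is read from a list's count beyond it, since the same values chose the libraries. With a fold of at least 2 in each guide, 59 were higher and 222 lower. Low counts made up much of these numbers, since 94 higher and 302 lower genes remained among the 13133 genes whose mean count was at least 50 (0.716% and 2.3%). Across genes, the sg1 and sg5 differences had a correlation of 0.21 (Pearson) or 0.31 (Spearman), and of 0.38 (Pearson) when the mean count was at least 50. The positive sign is set by the way the libraries were paired, and genes are not independent replicates. A total of 1111 genes differed at least 1.5-fold in the same direction in both guides, and 527 did so in opposite directions, so that much of what differed within a guide was not shared. Around the threshold, FAM171A2 (0.59 and 0.68 in sg1 and sg5) was just inside and RANGAP1 (0.58 and 0.64) just outside on the higher side, and G0S2 (-0.59 and -1.43) was inside and P2RX1 (-0.58 and -0.91) outside on the lower side.

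**Figure D2:**
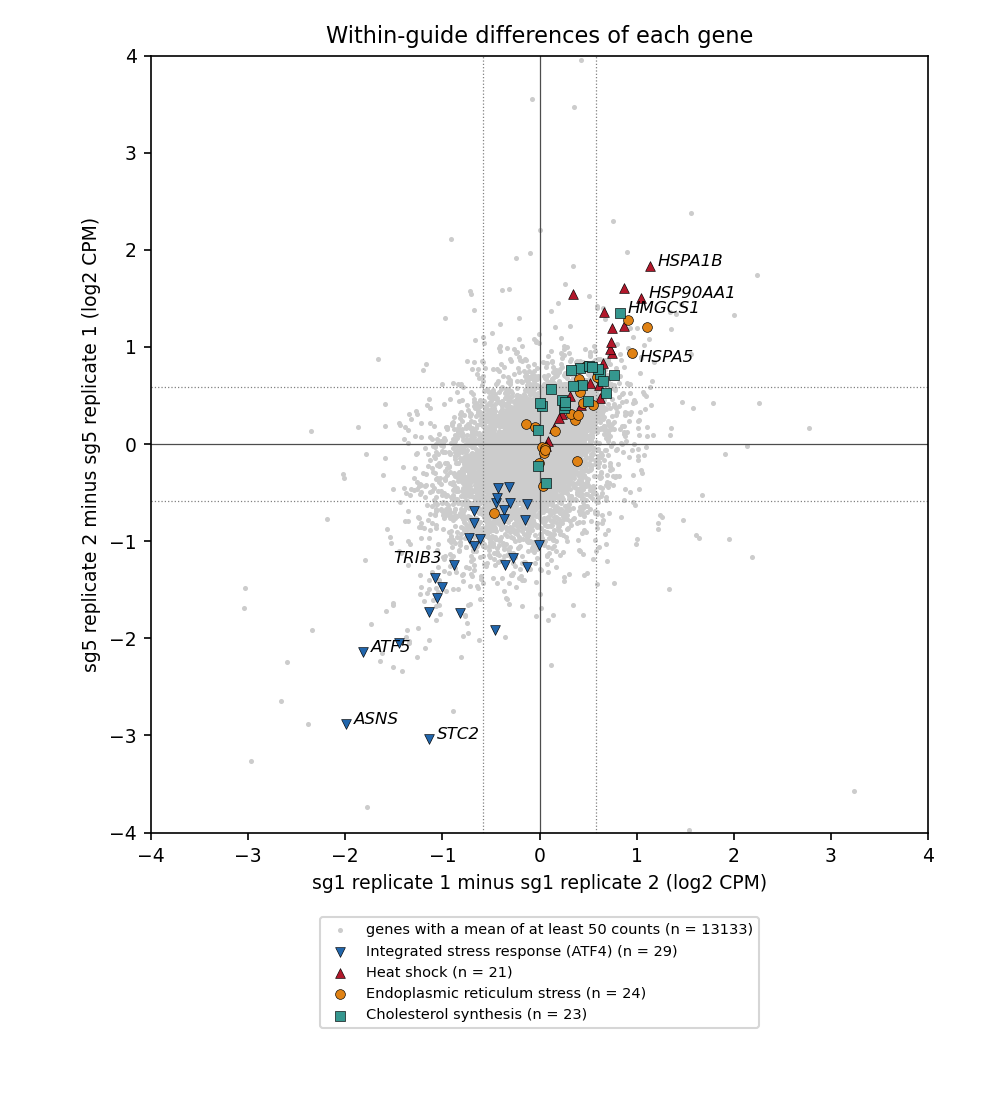
Each point is a gene whose mean count was at least 50, placed by its log2 CPM difference within sg1 (x axis) and within sg5 (y axis), with dotted lines at 1.5-fold and 26 genes outside the plotted range of 4. The ATF4 list lies toward the lower left, with ASNS at -1.99 and -2.88, and the heat shock list toward the upper right, with HSPA1B at 1.14 and 1.83.

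The LacZ libraries took no part in the choice of the separating genes, and their side was read from the midpoint of the gap between the pairs. Over all separating genes, both LacZ libraries lay with the other pair for 516 of 809 lower genes and 122 of 266 higher genes, with the divergent pair for 71 and 63, and on different sides for 222 and 81. At a mean count of at least 50, both lay with the other pair for 257 of 302 lower genes and 68 of 94 higher genes, with the divergent pair for 9 and 15, and on different sides for 36 and 11. No test was made of these counts, since the sides were chosen from the same values.

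Genes of the integrated stress response, a list of known targets and partners of ATF4, were lower in the divergent pair. Of 31 measured members of 32, where measured means past the low-count filter, 15 were separating and lower (48.4%, beside 4.37% of all genes) and 0 were separating and higher. There were 30 members with a negative difference in both guides. The median difference was -0.61 in sg1 and -1.04 in sg5, beside -0.02 and -0.01 over all genes tested. Averaged over the list, log2 CPM relative to the LacZ mean was -0.78 and -1.30 in the divergent pair, against -0.09 and -0.13 in the other pair and -0.10 and 0.10 in LacZ. The other pair thus lay within the LacZ range or just below it, and the divergent pair lay far below.

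ASNS, asparagine synthetase, was the leading member with a high count. It lies on chromosome 7 from 97852118 to 97872542 on the minus strand (GRCh38, GENCODE 29). Its level was 267 and 248 CPM in the LacZ libraries, 68.1 then 270.3 in those of sg1, and 314 then 42.4 in those of sg5. Both libraries of the divergent pair were far below the other 4, which lay together. The within-guide differences were -1.99 in sg1 and -2.88 in sg5.

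The promoter of ASNS is shown because it holds the 1 match to the core of the CARE, the C/EBP-ATF response element at which ATF4 binds, among separating members of the list. The motif was searched as TGATGNAA on both strands in RefSeq promoters of GRCh38.p14, from 250 bases before to 50 after the gene start. The stretch below is chr7:97872445-97872500, read 5′ to 3′ on the minus strand, and capitals mark the match, which begins 68 bases before the RefSeq start used there. The GENCODE gene given above begins further upstream, so that the stretch lies inside its span.
ASNS: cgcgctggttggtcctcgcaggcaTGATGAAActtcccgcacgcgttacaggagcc
Promoters were found for 10683 protein-coding genes tested and 24 of the list. The motif was present in 5 of these 24 (20.8%), namely ASNS, ATF3, CHAC1, SLC3A2 and SLC7A1, and in 188 of all 10683 (1.76%). Of these list members, ASNS was separating and the others were not. The list holds known ATF4 targets, so its share describes the list and not the division. Among separating lower genes whose mean count was at least 50 it was present in 8 of 154 (5.19%). Those 8 were ASNS, BCAT1, DNASE2, NLRP12, S100P, SGPP2, SLC38A1 and SYTL1, and the 154 were chosen by these same values. A match is no evidence of binding, and a response element can lie outside this window.

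Enzymes of serine synthesis lay on the same side as ASNS. PHGDH, which commits glucose carbon to serine, had 490.1 and 461 CPM in the LacZ libraries, 222 then 463 in those of sg1, and 529.5 then 176 in those of sg5. PSAT1, the next enzyme, had 329 and 360.5 CPM in the LacZ libraries, 164 then 360.0 in those of sg1, and 359 then 109 in those of sg5. In both genes the divergent pair lay below the other 4 libraries with no overlap, by -1.06 in sg1 and -1.59 in sg5 for PHGDH and by -1.13 in sg1 and -1.73 in sg5 for PSAT1. PSPH, which completes serine synthesis, went the same way within each guide by -0.44 in sg1 and -0.55 in sg5, short of 1.5-fold. The mitochondrial one-carbon enzymes SHMT2 and MTHFD2 were separating, with -0.61 in sg1 and -0.98 in sg5 for SHMT2 and -0.67 in sg1 and -1.05 in sg5 for MTHFD2. The cytosolic counterparts did not follow. SHMT1 had 0.06 in sg1 and -0.10 in sg5, MTHFD1 had 0.08 in sg1 and 0.25 in sg5, and TYMS, thymidylate synthase, had 0.29 in sg1 and 0.25 in sg5. Over a serine and one-carbon list added after values had been seen, 4 of 12 genes were separating and lower. These were PHGDH, PSAT1, SHMT2 and MTHFD2, all of which are also members of the ATF4 list and already counted there. CTH, which makes cysteine, was also separating, with -1.0 in sg1 and -1.47 in sg5.

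Enzymes that load amino acids onto cytosolic tRNAs were lower as a group but not uniformly. WARS, the tryptophan enzyme, had 337 and 368 CPM in the LacZ libraries, 174 then 365 in those of sg1, and 384 then 147 in those of sg5, a difference of -1.07 in sg1 and -1.38 in sg5. CARS, GARS, MARS and AARS, the enzymes for cysteine, glycine, methionine and alanine, were the other separating members, with differences between -1.34 (CARS in sg5) and -0.68 (AARS in sg1). The divergent pair was below the other 4 libraries in each of them. KARS, RARS, HARS and FARSA had positive differences in both guides, from 0.07 for HARS in sg1 to 0.45 for RARS in sg5. In all, 5 of 20 synthetases of this added list were separating and lower, and 16 had negative differences in both guides. Of the 5, AARS, GARS and WARS were already counted in the ATF4 list. The wider list of cytosolic translation and tRNA charging, which includes initiation and elongation factors, had medians of -0.04 and -0.03, near those of all genes.

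Among transporters of amino acids, SLC7A11, which exchanges cystine for glutamate, had 145 and 179 CPM in the LacZ libraries, 86.4 then 153 in those of sg1, and 144 then 43.2 in those of sg5. Its difference was larger within sg5 (-1.74) than within sg1 (-0.82). SLC43A1, which carries large neutral amino acids, SLC1A4 and SLC38A1 were also separating and lower, with -0.91 in sg1 and -0.95 in sg5 for SLC43A1. SLC7A5 and SLC3A2, the light and heavy chains of the LAT1 transporter, had -0.45 in sg1 and -0.61 in sg5 and -0.37 in sg1 and -0.77 in sg5, which met 1.5-fold in sg5 and not in sg1. SLC38A2, a transporter also known to respond to amino acid supply, had 709.9 and 641 CPM in the divergent pair and 710.0 and 696 in the other pair, so it took no part in the division. Of 30 measured members of an amino acid transporter list added after values had been seen, 4 were separating and lower and 1 was separating and higher. Of the 4, SLC7A11 and SLC1A4 were already counted in the ATF4 list. The separating higher gene, SLC7A9, had at most 0.258 CPM. Over this list, 15 members were lower in both guides and 8 were higher in both, with medians of -0.12 in sg1 and -0.19 in sg5.

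Transcription factors and feedback genes of the response varied more between the guides. ATF5, a factor related to ATF4, had 172 and 195 CPM in the LacZ libraries, 41.7 then 147 in those of sg1, and 143 then 32.4 in those of sg5, a difference of -1.82 in sg1 and -2.14 in sg5. ATF5 overlaps IL4I1 and NUP62, and the 3 genes summed differed by -0.82 and -0.67, less than ATF5 alone. TRIB3, a pseudokinase that restrains ATF4, had 405 and 519.7 CPM in the LacZ libraries, 196 then 362 in those of sg1, and 306 then 129 in those of sg5 and was separating. DDIT3, which encodes CHOP, had 29.8 and 29.4 CPM in the LacZ libraries, 16.2 then 19.7 in those of sg1, and 18.9 then 8.35 in those of sg5. In DDIT3, CEBPB, DDIT4 and SESN2 the divergent pair was lower in both guides, but the sg1 difference stayed under 1.5-fold (-0.28, -0.36, -0.13 and -0.46) while the sg5 difference was larger (-1.18, -1.24, -1.26 and -1.91). In each of DDIT3, CEBPB, DDIT4 and SESN2, all 4 ARID1A-deficient libraries lay below LacZ, as they did for ATF5 and TRIB3. ATF4 mRNA itself had 728 and 671 CPM in the LacZ libraries, 641 then 709.8 in those of sg1, and 798 then 464 in those of sg5, and the pairs differed by -0.15 in sg1 and -0.78 in sg5.

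Some targets outside metabolism were among the members with the largest differences. STC2, a secreted glycoprotein, had 44.3 and 50.8 CPM in the LacZ libraries, 14.1 then 31.2 in those of sg1, and 35.1 then 4.25 in those of sg5, and VLDLR, a lipoprotein receptor, had 98.9 and 124 CPM in the LacZ libraries, 41.9 then 114 in those of sg1, and 94.5 then 22.7 in those of sg5. In each, sg5 replicate 2 was the lowest library and sg1 replicate 1 the next. VLDLR-AS1, annotated on the opposite strand of VLDLR, was lower as well by -2.97 in sg1 and -3.27 in sg5. Whether the reads were assigned by strand is not stated, so this gene cannot be told apart from VLDLR. ALDH1L2, the 1 member without a negative difference in both guides, had at most 0.338 CPM in all libraries.

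**Figure D3:**
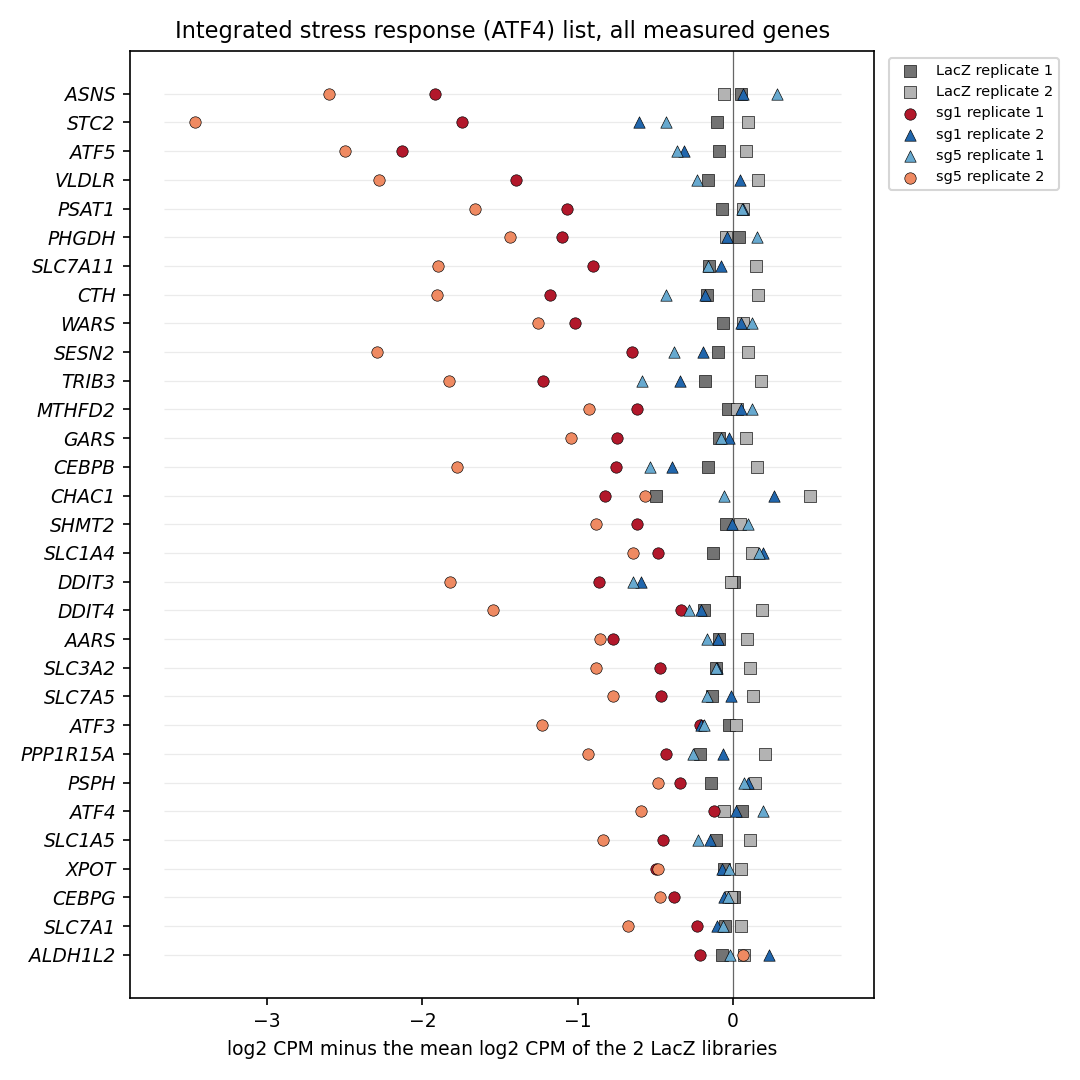
Log2 CPM of the 31 measured genes of the ATF4 list in each library (symbols), relative to the mean of the LacZ libraries (vertical line), ordered by the mean of both within-guide differences. The circle of the divergent pair lies left of the triangle of the same guide in both guides for 30 genes. For ALDH1L2 this held within sg1 (-0.44) and not within sg5 (0.09). For ASNS the circles lie at -1.99 and -2.88 from the triangles.

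The heat shock list showed the opposite direction. Of 23 measured genes of 24, 12 were separating and higher (52.2%, beside 1.44% of all genes), 0 were lower, and 21 had positive differences in both guides. The median difference was 0.62 in sg1 and 0.94 in sg5. The mean log2 CPM of the list relative to LacZ was 0.63 and 0.89 in the divergent pair, 0.08 and 0.03 in the other pair, and 0.13 and -0.13 in LacZ.

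HSP90AA1, the inducible form of the chaperone HSP90, had 1057 and 1181 CPM in the LacZ libraries, 2199 then 1067 in those of sg1, and 1014 then 2869 in those of sg5. HSPA8, the constitutive HSP70, had 1166 and 838 CPM in the LacZ libraries, 1858 then 1169.7 in those of sg1, and 1207 then 3092 in those of sg5. HSPH1, a nucleotide exchange factor for HSP70, had 185 and 182 CPM in the LacZ libraries, 349.8 then 192 in those of sg1, and 169 then 513 in those of sg5. In all of them sg5 replicate 2 was the highest library, and sg1 replicate 1 was the next. The other 4 lay close together for HSP90AA1 and HSPH1, whereas for HSPA8 LacZ replicate 2 lay below the other 3. The within-guide differences were 1.04 in sg1 and 1.5 in sg5 for HSP90AA1, 0.67 in sg1 and 1.36 in sg5 for HSPA8 and 0.87 in sg1 and 1.60 in sg5 for HSPH1. HSP90AB1, the constitutive HSP90, differed far less (0.23 in sg1 and 0.31 in sg5).

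HSPA1A and HSPA1B encode the same inducible HSP70 and are near-identical copies on chromosome 6, so that their reads cannot be assigned with confidence. Summed, they had 74.5 CPM in sg1 replicate 1 and 132 in sg5 replicate 2, 33.8 and 37.1 in the other pair, and 41.3 and 28.4 in the LacZ libraries. The divergent pair was above the other 4 libraries, by 1.14 within sg1 and 1.83 within sg5. Nearly all of this was assigned to HSPA1B.

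Co-chaperones lay on the same side. The J-domain proteins DNAJB1 and DNAJA1 differed by 0.87 in sg1 and 1.21 in sg5 and by 0.75 in sg1 and 1.2 in sg5. BAG3, which links HSP70 to autophagy, had 0.73 in sg1 and 1.05 in sg5, and AHSA1, which stimulates the ATPase of HSP90, had 0.75 in sg1 and 0.94 in sg5. HSPE1, the mitochondrial co-chaperonin, was separating with 0.73 in sg1 and 0.98 in sg5, while its partner HSPD1 had 0.31 in sg1 and 0.49 in sg5. CHORDC1 met 1.5-fold within sg5 alone (0.35 in sg1 and 1.55 in sg5). The factors HSF1 and HSF2 differed by at most 0.17 in either guide. The 8 subunits of the cytosolic chaperonin CCT, which folds tubulin and actin, all had positive differences in both guides, with medians of 0.33 and 0.44, and 0 of them was separating.

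Promoters of 3 of the separating members are printed because each holds a match to a heat shock element, searched as GAANNTTC, which reads the same on both strands. The matches shown begin 105, 230 and 198 bases before the gene start in HSPA1B, HSPA8 and DNAJA1, in the same RefSeq windows, and capitals mark the match. The stretches are chr6:31827609-31827664 on the plus strand, chr11:123062335-123062386 on the minus strand and chr9:33025051-33025106 on the plus strand, in that order.
HSPA1B: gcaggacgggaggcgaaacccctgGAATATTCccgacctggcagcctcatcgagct
HSPA8: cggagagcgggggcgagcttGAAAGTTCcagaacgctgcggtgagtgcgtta
DNAJA1: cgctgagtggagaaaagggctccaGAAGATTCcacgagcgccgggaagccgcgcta
The motif was found in 8 of 21 promoters of the heat shock list (38.1%) and in 494 of all 10683 (4.62%). Among separating higher genes whose mean count was at least 50, 4 of 67 promoters held it (5.97%), close to the share of all promoters. Those 4 were in DNAJA1, HSPA1B, HSPA8 and TUBA1C, an α-tubulin gene. This list holds known HSF1 targets, so the share in the list describes the list and not the division.

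Chaperones of the endoplasmic reticulum were higher in the divergent pair, but the list was split. Of 24 genes, 5 were separating and higher and 0 were lower, with medians of 0.38 in sg1 and 0.27 in sg5. HSPA5, the chaperone BiP, had 472 and 443 CPM in the LacZ libraries, 769.8 then 399 in those of sg1, and 461 then 884 in those of sg5. SDF2L1 and MANF, resident proteins that act with BiP, differed by 1.11 in sg1 and 1.2 in sg5 and by 0.91 in sg1 and 1.28 in sg5. In all of them the pairs were apart and LacZ lay with the other pair. PDIA4, a disulfide isomerase, and CALR, the lectin chaperone calreticulin, completed the separating members, and HSP90B1 had 0.41 in sg1 and 0.66 in sg5. The transcription factors did not follow, since XBP1 had 0.05 in sg1 and -0.09 in sg5 and ATF6 had 0.06 in sg1 and -0.04 in sg5. DNAJB9, a co-chaperone, had 0.06 in sg1 and -0.06 in sg5. EDEM1, which delivers misfolded glycoproteins for degradation, was lower, with -0.47 in sg1 and -0.71 in sg5.

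Cholesterol synthesis showed the same side. Of 24 measured genes, 5 were separating and higher, 0 were lower and 20 had positive differences in both guides, with medians of 0.34 and 0.55. HMGCS1, which makes HMG-CoA, had 229 and 154 CPM in the LacZ libraries, 312 then 176 in those of sg1, and 146 then 371 in those of sg5. The divergent pair was above the other 4 libraries by 0.83 in sg1 and 1.35 in sg5, although the LacZ libraries themselves differed. INSIG1, a sterol sensor that holds SREBP2 back, had 154 and 109 CPM in the LacZ libraries, 197 then 116 in those of sg1, and 123 then 200.3 in those of sg5. IDI1, NSDHL and EBP, later enzymes of the pathway, were the other separating members, with differences between 0.60 and 0.77. SREBF2, which encodes SREBP2, had -0.01 in sg1 and -0.23 in sg5.

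**Figure D4:**
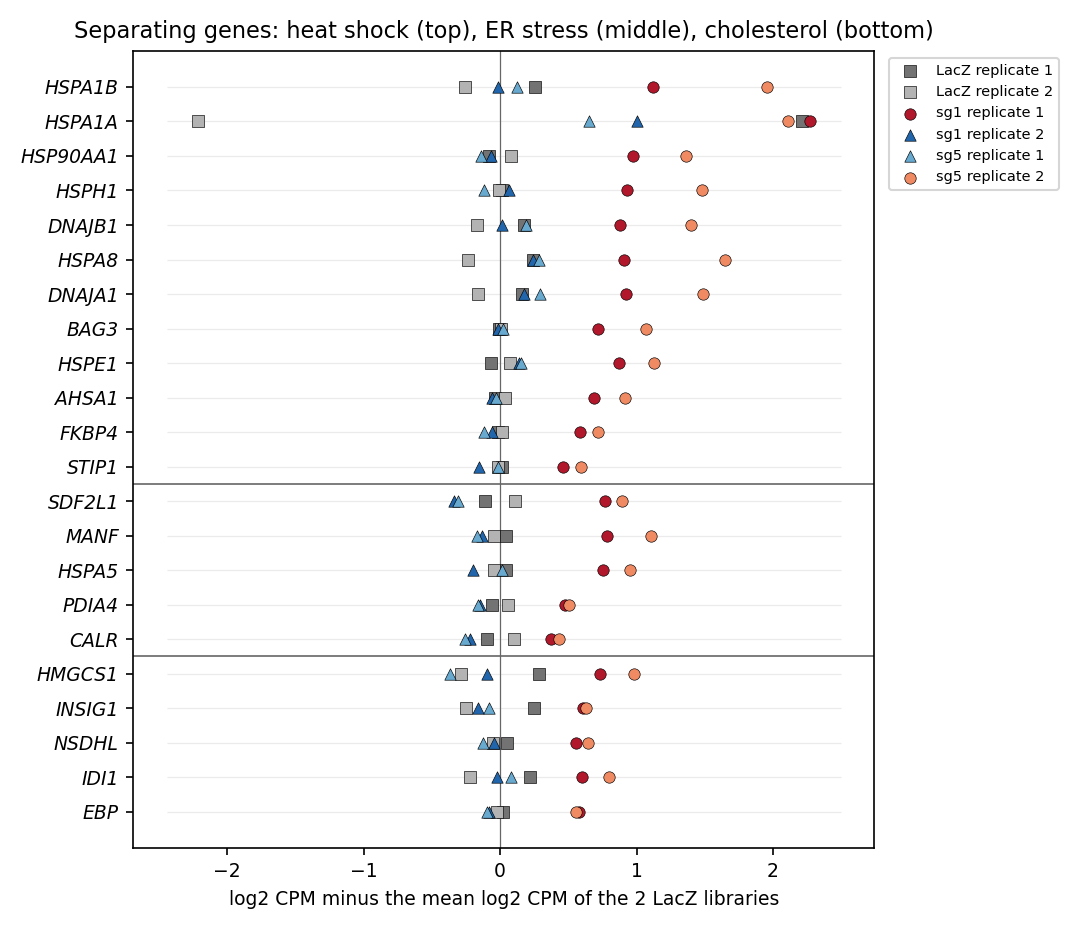
Log2 CPM of the separating genes of 3 lists in each library, relative to the mean of the LacZ libraries (vertical line): 12 heat shock genes, 5 endoplasmic reticulum genes and 5 cholesterol genes, from top to bottom. The circles of the divergent pair lie right of the triangles of the other pair in all of them. HSPA1A, with at most 0.870 CPM, had 0 counts in LacZ replicate 2, so its distances are not reliable.

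Growth genes leaned the same way with small differences. The G2/M list had 44 of 53 genes with positive differences in both guides and 3 separating ones, with medians of 0.22 and 0.39. The separating genes were TUBB4B, CDC20, an activator of the anaphase-promoting complex, and CKAP2L, a spindle protein. MKI67, a marker of cycling cells, had 339 and 409 CPM in the LacZ libraries, 523 then 414 in those of sg1, and 314 then 525 in those of sg5, and CCNB1, the mitotic cyclin B1, differed by 0.42 in sg1 and 0.52 in sg5. The S phase list had medians of 0.16 and 0.26 and 0 of 42 separating genes, and PCNA, the DNA polymerase clamp, had 0.56 in sg1 and 0.35 in sg5. MYC mRNA had -0.31 in sg1 and 0.05 in sg5, while the list of MYC and ribosome biogenesis genes had medians of 0.17 and 0.24, with HSPE1 as its 1 separating member.

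Proteasome genes were slightly higher in the divergent pair, with small differences. All but 4 of 36 subunit genes had positive differences in both guides, with medians of 0.30 and 0.29, and 1 was separating. That was PSMD11, a lid subunit, with 94.5 and 92.9 CPM in the LacZ libraries, 139.9 then 87.7 in those of sg1, and 92.6 then 157 in those of sg5. The exceptions were PSMD5, an assembly chaperone, and PSMB8, PSMB9 and PSMB10, the catalytic subunits of the immunoproteasome, whose differences within sg5 were -0.26, -0.38 and -0.12. Nuclear genes of oxidative phosphorylation (0.26 and 0.19), mitochondrial ribosomal proteins (0.25 and 0.21) and glycolysis (0.20 and 0.22) had positive medians of similar size. Between them they held 3 separating genes, MRPS28, MRPS6 and MRPL36, all of the mitochondrial ribosome. Cytosolic ribosomal protein genes did not share this, with medians of -0.00 and -0.15 and 0 of 83 separating.

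Tubulins, a list added after values had been seen, had 5 of 15 separating genes, all higher. TUBB4B, a β-tubulin, had 289.6 and 265 CPM in the LacZ libraries, 530.4 then 251 in those of sg1, and 259.7 then 525 in those of sg5, and the pairs were apart by 1.08 in sg1 and 1.02 in sg5, with LacZ beside the other pair. TUBB6, TUBA1C, TUBB2A and TUBB4A were the others. TUBA1B and TUBB, the members that took the most counts, had 0.52 in sg1 and 0.63 in sg5 and 0.32 in sg1 and 0.33 in sg5. Tubulin genes are similar in sequence, and reads may be shared between them.

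Maturation genes were divided in part. Of 32 genes of neutrophil and monocyte maturation, 1 was separating: C5AR1, the complement C5a receptor, with 38.0 and 45.7 CPM in the LacZ libraries, 21.3 then 32.7 in those of sg1, and 33.9 then 8.37 in those of sg5. The medians of that list had opposite signs (0.23 in sg1 and -0.25 in sg5). ITGAM, which encodes CD11b, had 0.04 in sg1 and -0.53 in sg5, and CSF3R, the G-CSF receptor, had -0.05 in sg1 and -0.68 in sg5. Among 13 primary granule genes, PRTN3, a serine protease, and SRGN, the granule proteoglycan, were separating and higher, with list medians of 0.41 in sg1 and 0.14 in sg5. Of 9 secondary and tertiary granule genes, 1 was separating and higher, TCN1, a cobalamin carrier at no more than 0.534 CPM, with medians of 0.63 and 0.15. PRTN3 had 459 and 498 CPM in the LacZ libraries, 599.6 then 319 in those of sg1, and 294 then 452 in those of sg5, so that LacZ lay between or beside the divergent pair and the other pair was below. The neighboring granule gene AZU1 differed by -0.02 in sg1 and 0.02 in sg5, and MPO by 0.09 in sg1 and 0.11 in sg5. CEBPE, a factor of granule maturation, had 0.36 in sg1 and 0.35 in sg5. Among 31 myeloid transcription factors, MEIS1, at no more than 0.938 CPM, and GFI1B were separating and lower. GFI1B had 1.44 and 1.41 CPM in the LacZ libraries, 1.25 then 2.72 in those of sg1, and 4.09 then 1.62 in those of sg5.

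Some lists lay on 1 side of LacZ in all ARID1A-deficient libraries without following the division. The eosinophil, basophil and mast cell list lay at -0.47 and -0.66 relative to LacZ in the divergent pair and at -0.55 and -0.55 in the other pair, with 0 of 18 genes separating. MHC class II genes lay at 0.79 and 0.59 in the divergent pair and 0.54 and 0.88 in the other, with 0 of 10 separating. SWI/SNF subunits lay within 0.05 of LacZ in all libraries. Genes of p53, interferon, retinoid, lysosome and immediate early responses had medians of opposite sign in sg1 and sg5. Each of these lists except that of p53 nevertheless held 1 separating gene, lower in the divergent pair. EGR3, an immediate early factor at no more than 0.645 CPM, had -1.45 in sg1 and -2.29 in sg5. IFI44L of the interferon list and HIC1 of the retinoid list stayed at or below 0.773 CPM. At such levels the differences are uncertain. WIPI1 of the lysosome list, with a mean count of 345, had -0.63 in sg1 and -0.93 in sg5. In the hypoxia list 2 of 19 genes were separating and lower, of which VEGFA, a growth factor for blood vessels that ATF4 also drives, had 245 and 261 CPM in the LacZ libraries, 128 then 228 in those of sg1, and 194 then 90.9 in those of sg5.

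**Figure D5:**
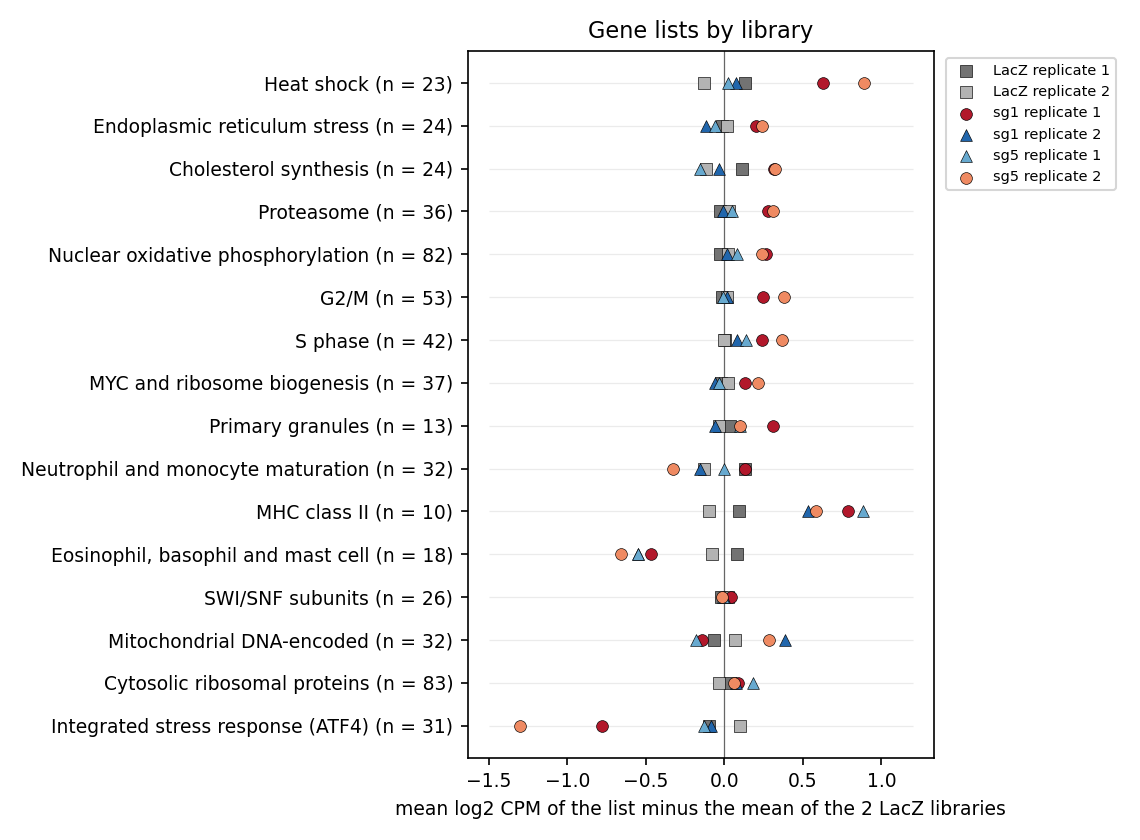
Mean log2 CPM of 16 gene lists in each library, relative to the mean of the LacZ libraries (vertical line). The circles of the divergent pair are right of the triangles for heat shock (0.63 and 0.89 against 0.08 and 0.03) and left of them for the ATF4 list (-0.78 and -1.30 against -0.09 and -0.13), whereas circles and triangles mix for eosinophil, MHC class II and SWI/SNF genes.

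Outside the lists, the coding genes that led on the lower side had low counts. UNC5B, a netrin receptor, had 4.63 and 6.90 CPM in the LacZ libraries, 0.119 then 3.22 in those of sg1, and 2.47 then 0.158 in those of sg5. GDAP1L1 had 2.87 and 4.36 CPM in the LacZ libraries, 0.0989 then 3.26 in those of sg1, and 2.77 then 0.0989 in those of sg5. In both the divergent pair was near 0 while the other 4 libraries were above 2 CPM. HOXB9, a homeobox factor, had 33.5 and 37.1 CPM in the LacZ libraries, 5.58 then 17.5 in those of sg1, and 17.7 then 3.72 in those of sg5, so the other pair was itself below LacZ and the divergent pair lower still. DUSP7, a phosphatase of MAP kinases, had 21.3 CPM in LacZ replicate 1 and 50 in LacZ replicate 2, 6.27 then 19.3 in the sg1 libraries, and 41.8 then 9.38 in those of sg5, with LacZ replicate 1 near sg1 replicate 2 and LacZ replicate 2 near sg5 replicate 1. BATF3, a leucine zipper factor, KCNG1, a potassium channel subunit, ANK2, an ankyrin, and MATN4, a matrix protein, had differences between -2.60 (MATN4 in sg1) and -1.51 (BATF3 in sg1). MATN4 overlaps RBPJL, and the sum of both differed by -2.14 in sg1 and -2.16 in sg5. SPRN and NDUFA4L2 also met the rule, and overlap other genes as well. SPRN and MTG1 summed differed by -0.51 and 0.01, so the SPRN difference was not seen in the sum within sg5. NDUFA4L2 overlaps SHMT2, and the sum of both differed by -0.62 and -0.98, the values of SHMT2.

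On the higher side, CCNA1, the germ-line and leukemic cyclin A1, had 5.85 and 4.62 CPM in the LacZ libraries, 16.7 then 6.30 in those of sg1, and 5.50 then 13.9 in those of sg5. MYBPH, a myosin-binding protein, had 3.55 and 3.07 CPM in the LacZ libraries, 11.8 then 4.61 in those of sg1, and 5.18 then 11.8 in those of sg5. In both genes the divergent pair was more than 2-fold above the other 4 libraries, and for MYBPH the other pair lay slightly above LacZ. RASL11A, a small GTPase, differed by 0.96 in sg1 and 1.10 in sg5. ZCCHC3, GDF1 and POC1B-GALNT4 met the rule with values that call for care. ZCCHC3 was listed at 0 in LacZ replicate 2 and at 15.5 CPM in LacZ replicate 1. GDF1, at 7.76 and 0.0397 CPM in the LacZ libraries, overlaps CERS1, and the sum of both differed by 0.75 and 0.70 in place of 7.36 and 7.95. POC1B-GALNT4 is a read-through gene, and with POC1B and GALNT4 summed the differences were -0.03 and -0.11.

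RNA classes differed between the pairs as well. lincRNA and antisense genes took 0.961% and 0.978% of counts in the divergent pair, 1.16% and 1.14% in the other pair, and 1.19% and 1.16% in LacZ. Pseudogenes took 0.478% and 0.479% against 0.571% and 0.520%, and protein-coding genes 98.4% and 98.3% against 97.8% and 98.0%. In each class the pairs did not overlap, and LacZ lay with the other pair. Of 3499 long noncoding genes tested, 278 were separating and lower (7.95%) and 67 higher (1.91%), beside 433 (3.16%) and 151 (1.10%) of 13689 coding genes. At a mean count of at least 50, 8 of 1175 long noncoding genes were higher, beside 80 of 11507 coding genes (0.695%). At that count 64 long noncoding genes were lower (5.45%), beside 219 coding genes (1.90%). CHRM3-AS2, an antisense gene, had 10.2 and 10.1 CPM in the LacZ libraries, 2.31 then 11.9 in those of sg1, and 9.68 then 2.53 in those of sg5. The best known nuclear RNAs did not follow, since MALAT1 had -0.18 in sg1 and 0.18 in sg5 and NEAT1 had -0.51 in sg1 and 0.06 in sg5.

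Retained intron transcripts of coding genes took 4.86% and 5.15% of coding counts in the divergent pair, and 5.83% and 5.13% in the other pair, so that the pairs overlapped. Mitochondrially encoded genes did not follow either, with 4.45% and 5.72% against 6.22% and 4.67%, and medians of -0.36 within sg1 and 0.39 within sg5. Of 32 measured members, 5 were higher and 5 lower in both guides, and the 1 separating member, MT-TH, a tRNA gene, had at most 0.514 CPM. MT-RNR2, the large mitochondrial rRNA, was among the 5 lower ones and had 2797 and 3009 CPM in the LacZ libraries, 1455 then 3383 in those of sg1, and 2651 then 1875 in those of sg5. The divergent pair was the lowest, by -1.22 in sg1 and -0.50 in sg5, under 1.5-fold within sg5. Small structural RNA genes had 10 separating higher and 5 separating lower members of 117 measured (8.55% and 4.27%, beside 1.44% and 4.37% of all genes). Of these, SNORD17 alone had a mean count of at least 50, so the counts rest on low values. AC009133.2, AL807752.3 and AC010655.4, which led among noncoding genes on the higher side, overlap MAZ, SAPCD2 and HILPDA, and RPL9P9 is a processed copy of RPL9, so their values are uncertain.

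The sides differed little by gene position. Medians by chromosome lay between -0.05 and 0.05 in either guide. By transcript length, genes of the lowest tercile had medians of 0.05 and 0.01, and those of the highest tercile -0.01 and 0.01. Separating higher genes were 1.16% of the lowest and 0.388% of the highest tercile, and separating lower genes 2.56% and 1.83%. By GC content of the transcript, separating lower genes were 1.62% of the lowest and 2.92% of the highest tercile.

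The labelled comparisons were tested to ask whether separating genes were also called between genotypes or guides. ARID1A-deficient against LacZ, edgeR's quasi-likelihood test called 31 of 18514 genes at an FDR of 0.1 (0.167%), 8 higher and 23 lower, and 1334 genes had an unadjusted p under 0.05. Of these 31, 1 was separating and lower, the noncoding gene AL133453.1, and 0 were separating and higher, beside 4.37% and 1.44% of all genes. A total of 23 had both within-guide differences under 0.5, as did 62.1% of all genes tested. The within-guide differences are part of the residual spread in this test, which makes a separating gene harder to call, so nothing is read from this overlap. RIPOR2, a regulator of the GTPase RHOA, is an example of a called gene with small differences within the guides, having 2.94 and 2.56 CPM in the LacZ libraries, 21.2 then 17.8 in those of sg1, and 16.9 then 16.8 in those of sg5. Of the ATF4, heat shock, endoplasmic reticulum and cholesterol lists, 0 members were called by edgeR, beside 0.167% of all genes. The smallest adjusted p among them by edgeR was 0.497. Between sg1 and sg5, TEN1 was the 1 gene called (0.0054%), and it was not separating.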

How the data were processed

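RNA of 6 NB4 libraries (LacZ, sg1 and sg5, 2 each) was sequenced, and the authors deposited 1 kallisto table per library with estimated counts and TPM per transcript. The submitters' processing notes name hg19, kallisto and DESeq2. The study's methods give a kallisto version for murine reads and a DESeq2 version. The transcript set and strand setting of these human libraries are not given in the sources used here. Here, 181857 of 196354 transcripts (92.6%) were matched to GENCODE 29 (GRCh38) and their estimated counts summed to 52992 genes and rounded. filterByExpr with a minimum count of 10 left 18514 genes, scaled by TMM. Differences are of log2 CPM (prior count 2), and separating genes differed at least 1.5-fold in the same direction in both guides without overlap.

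Joined ARID1A-deficient libraries were tested against LacZ, and sg1 against sg5, with edgeR 4.0.16 (quasi-likelihood, FDR 0.1) in R 4.3.3, all groups sharing one estimate of spread (a biological coefficient of variation of 16.6%). The scripts were tested on simulated data. Alternatives were DESeq2 1.42.0, its size factors, total counts, the deposited TPM, other filters, folds and prior counts, each library left out, and a replicate block. Labels group the samples and no batch in them matches the division, nor do the E1 and E2 of the titles, whose meaning is not given. Counting error weighs most on genes with low counts, which made up much of the separating genes. No interval covers culture variation.

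The libraries and gene lists were chosen with earlier results of these data known. Named genes were ARID1A, up to 12 coding and 5 noncoding separating genes in each direction with a mean of at least 50 counts, ranked by the smaller within-guide difference, up to 4 members of each list with the largest mean difference, and a panel of known genes. Other genes named, mostly members of lists, were chosen after their values were seen, as were the lists of tubulins, CCT subunits, serine synthesis, synthetases and transporters. Some genes are not reported here.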

Additional observations from a re-analysis of the deposited data

Results flagged for a closer look

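Over the 4 ARID1A-deficient libraries, 229 named genes and 19 library measures were examined for a library far from the other 3, which chance gives in about 1 of 20 cases. The gap of that library as a share of the whole range was 0.972 for ATF3, 0.869 for NCAM1 and 0.831 for PDGFRB, above Dixon's critical value for 4 samples, with sg5 replicate 2 as the low library in each. ATF3, a stress-induced factor, had 4.57 CPM there and 9.27 to 9.46 in the other 3. NCAM1, an adhesion molecule, had 6.88 CPM there and 9.90 to 10.5 in the others. For HDC, histidine decarboxylase, the share was 0.871, with 7.80 CPM in sg5 replicate 1 and 8.74 to 8.89 in the others, beside 20.7 and 20.3 in LacZ. The number of genes with at least 10 counts had a share of 0.836, with 17289 in sg5 replicate 2 and 17437 to 17466 in the others. TEN1, a telomere-capping subunit, differed between sg1 and sg5 by 3.33 on the log2 scale, with 18.1 and 19.6 CPM in sg1, 2.51 and 1.23 in sg5, and 13.1 and 17.0 in LacZ. TEN1 overlaps other genes, among them TEN1-CDK3, and was the 1 gene called by edgeR between the guides.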

How the results depend on the processing

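The counts of separating genes, 266 higher and 809 lower, depended on low counts and on the threshold. From the deposited TPM they were 74 and 243, over genes refitted with a mean of at least 50 counts 89 and 309, with no low-count filter 667 and 1721, and with a fold of at least 2 they were 59 and 222. Leaving out 1 of the 4 libraries leaves a single guide to meet the rule, by construction, and gave 1125 to 1263 higher and 2471 to 2584 lower genes. DESeq2's size factors gave 281 and 778, a prior count of 0.5 gave 287 and 876, and total counts alone 198 and 977. Lower genes were 75.3% of separating genes, and 83.1% with total counts alone. Under the scaling alternatives, median differences kept their sign in the lists given as higher or lower in the report. The proteasome median of both guides, 0.28, was 0.30 with DESeq2's size factors, 0.22 with total counts, 0.23 from TPM and 0.27 over genes with at least 50 counts, and 0.29 to 0.30 with a library left out. The endoplasmic reticulum median was 0.31, and 0.23 from TPM. The cause was not tested. Of the values of single genes and other lists, 2224 were within their spread of the reported value and 214 moved beyond it.

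The labelled comparisons were fragile. Against the 31 genes called between ARID1A-deficient cells and LacZ by edgeR, DESeq2 called 264, and edgeR with no low-count filter 701. Leaving out 1 library gave 3 to 193 genes, with 3 without LacZ replicate 1, 5 without LacZ replicate 2, 48 without sg1 replicate 2 and 193 without sg5 replicate 1. Between sg1 and sg5, where edgeR called 1 gene, DESeq2 called 5 and edgeR with no filter 86. Leaving out 1 library gave 0 to 8 genes, with 0 by edgeR without sg1 replicate 1 (539 genes at an unadjusted p under 0.05), 8 without sg1 replicate 2, 7 without sg5 replicate 1 and 2 without sg5 replicate 2. The cause was not tested.

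Over 13133 genes, the deviations of same-numbered libraries had correlations of 0.16 (LacZ, sg1), -0.01 (LacZ, sg5) and -0.38 (sg1, sg5). The last is the correlation of 0.38 between the within-guide differences with its sign reversed, and that sign is set by the choice of the pairs. Whether same-numbered libraries were handled together was not tested, and these values cannot show it. With a replicate block, edgeR called 3 genes against LacZ and 0 between the guides (206 at an unadjusted p under 0.05, and 5 called by DESeq2 without the block). With crossed numbers, an alternative chosen after seeing the data, edgeR called 2 genes between the guides.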
